A study of Homo sapiens with 6 samples.

Results

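The levels of 10 WNT pathway genes were followed in DU-145/tet-XISTshRNA cells, namely the ligands WNT5A, WNT5B and WNT7B, the Frizzled receptors FZD2 and FZD6, the co-receptors ROR1, LRP5 and LRP6, β-catenin (CTNNB1) and the secreted inhibitor DKK1. They were taken by name from the 25528 gene symbols of the expression file, and 9 of the 10 were among the 11672 genes with a mean of at least 1 TPM (the authors' transcript abundance, normalized for gene length and for the total of the sample) that entered the test. DU-145 is an established human prostate cancer cell line, here carrying a doxycycline (DOX)-inducible vector for an shRNA against XIST, the long non-coding RNA of X inactivation. The 3 vehicle samples received 0.1% DMSO and the 3 DOX samples received 500 ng/ml DOX, with 7 days of treatment, and all 6 samples carried the vector. Cells with a control shRNA and DOX were not analysed here, so an effect of DOX itself and an effect of the shRNA cannot be told apart. The study's methods describe triplicate cultures and independent biological replicates in general, while the labels give only replicate numbers, and p-values measure the spread between these samples.

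WNT proteins are secreted lipid-modified ligands that bind Frizzled receptors. With LRP5 or LRP6 as co-receptor they stabilize β-catenin, which enters the nucleus and works with TCF/LEF factors on target genes such as AXIN2 and DKK1. WNT5A and WNT5B act mostly through a β-catenin-independent branch, in which ROR1 and other co-receptors direct cell polarity and movement by way of small GTPases, and WNT5A is known in prostate cancer as a ligand of that branch.

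XIST, the silenced transcript, was listed at 0 TPM in all 6 samples, as was EIF4A1, a translation factor that dividing cells use, which leaves the silencing itself unmeasured here. The samples had the epithelial keratins KRT8 (59.9 to 91.2 TPM) and KRT18 (75.9 to 146.5 TPM), while KLK3, a prostate luminal marker, was listed at 0 throughout. The summed TPM of 3 immune markers (2 of them above 0, nearly all of it CD68) was 15.3 to 19.6 in vehicle and 11.4 to 12.7 in DOX, with CD3E at 0. Of 3 fibroblast markers DCN and LUM were at 0 and COL1A1 was at 0.498 to 0.616 TPM in vehicle and 0.269 to 0.378 TPM in DOX, and 2 endothelial markers summed to at most 0.0531 TPM. Their part in the differences was not tested. Reads on genes, recovered from the steps between low TPM values, ran from 5453921 in vehicle replicate 3 to 64573380 in DOX replicate 1. In the same samples 5 abundant small RNAs (RPPH1, RN7SK and 3 RN7SL genes) took 67.5% to 76.0% of all TPM in vehicle and 76.0% to 82.6% in DOX, lowest in vehicle replicate 3 and highest in DOX replicate 1. Of the 10 WNT genes, 9 had their highest TPM in vehicle replicate 3 and 7 had their lowest in DOX replicate 1. The differences of the tested members are therefore given both in TPM and after median-of-ratios scaling, which divides each sample by the median, over genes, of its ratios to the geometric mean of the samples. Over all genes, the median log2 difference (DOX minus vehicle) was -0.35 on the TPM scale and 0.02 after this scaling.

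To show what sequence lies at the start of the genes, promoter windows from 250 bases before to 50 bases after a RefSeq start site (GRCh38.p14) were searched on both strands for CTTTGA, the core that TCF/LEF factors recognize. Windows were given for 6 of the 10 genes (8 windows in all), and 12.9% of 35116 promoters of this length held the core. The DKK1 window (chr10:52314031-52314330, plus strand, 63.7% GC) is shown because it was the only one of the 8 with a match. Its 2 matches, in capitals, began at positions -149 and -95 from the start, the first of them on the opposite strand. The window of the upstream one of the 2 listed starts of WNT5A (chr3:55487257-55487556, minus strand, 56.3% GC) is shown beside it as an example without a match. These matches describe letters only, and factor binding was not measured.
DKK1: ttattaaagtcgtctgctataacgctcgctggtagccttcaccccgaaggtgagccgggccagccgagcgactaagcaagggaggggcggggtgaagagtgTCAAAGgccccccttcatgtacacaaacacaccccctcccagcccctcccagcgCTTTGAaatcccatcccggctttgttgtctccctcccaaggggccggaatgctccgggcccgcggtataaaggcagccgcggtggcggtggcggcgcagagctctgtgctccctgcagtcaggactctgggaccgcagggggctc
WNT5A: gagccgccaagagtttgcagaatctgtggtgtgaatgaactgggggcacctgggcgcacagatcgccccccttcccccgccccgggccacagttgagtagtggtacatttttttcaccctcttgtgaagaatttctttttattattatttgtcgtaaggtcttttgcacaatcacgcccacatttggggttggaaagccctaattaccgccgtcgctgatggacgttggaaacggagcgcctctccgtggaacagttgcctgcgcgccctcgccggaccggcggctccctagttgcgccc

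WNT7B, a ligand that can act through β-catenin, was the main WNT ligand of these cells and WNT5A the next. WNT7B was at 11.4, 10.6 and 12.2 TPM in the vehicle samples, given here and below in the order of replicates 1, 2 and 3, while the DOX samples had 8.60, 9.04 and 10.3 TPM. The highest DOX value was under the lowest vehicle value on this scale, but the change of -0.26 (log2, 95% interval -0.76 to 0.23, limma adjusted p = 0.434) was smaller than the shift of all genes and did not pass. In such bulk RNA fewer cells of a kind and less RNA per cell cannot be told apart. After median-of-ratios scaling the means were 9.67 ± 1.08 and 10.8 ± 1.72 (SD, n = 3) scaled TPM with overlapping groups, a change of 0.14 in the other direction (adjusted p = 0.619). WNT7B lies on chromosome 22 (45920366 to 45977162, minus strand, GRCh38 with GENCODE 44, as for the positions below).

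WNT5A (chromosome 3, 55465715 to 55490539, minus strand) was less abundant than WNT7B. It was at 2.02, 2.45 and 3.03 TPM in vehicle, and at 1.19, 1.85 and 1.81 TPM in DOX. The DOX samples were all lower, and DOX over vehicle was 0.588, 0.754 and 0.597 for the same-numbered samples. The log2 fold change was -0.42 (95% interval -0.83 to -0.01), which missed the threshold (limma adjusted p = 0.158). Beyond the median of all genes it was -0.07, but the pseudocount of 1 understates the change of a gene at about 2 TPM. Over the alternative fits the value of WNT5A ran from -0.61 to 0.06. With a pseudocount of 0.1 the median of all genes was -0.42. With scaling the means were 2.09 ± 0.15 and 1.83 ± 0.12 (SD, n = 3) scaled TPM, the groups overlapped and the change was -0.13 (95% interval -0.40 to 0.15, adjusted p = 0.595). The recovered reads behind these values were 296, 395 and 104 in vehicle and 1047, 319 and 312 in DOX, so vehicle replicate 3 was the least precise. A difference of WNT5A was thus not detectable on the scaled values at this spread, and the interval allows changes of either sign.

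WNT5B, the close relative of WNT5A, was near the limit of detection. It stood at 0.0605, 0.147 and 0.172 TPM in vehicle and 0.204, 0.273 and 0.0856 TPM in DOX. These rest on 3, 8 and 2 reads in vehicle and on 61, 16 and 5 reads in DOX. The groups overlapped, the gene was under the minimum for the test, and an exact two-sided permutation test on mean log2(TPM + 1) gave p = 0.4, where 3 against 3 samples cannot go below 0.1. The scaled means were 0.104 ± 0.040 and 0.219 ± 0.111 TPM (SD, n = 3), also with overlap. WNT5B lies on chromosome 12 (1529891 to 1647212, plus strand).

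**Figure D1:**
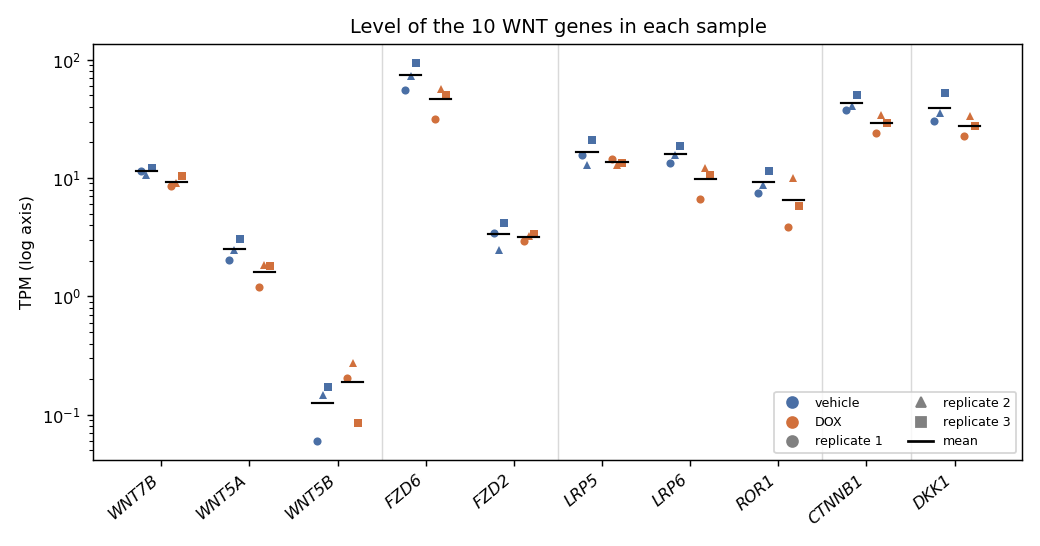
Levels of the 10 WNT genes as TPM on a log axis, ordered by role (ligands, Frizzled receptors, co-receptors, β-catenin, inhibitor), with 1 point per sample (blue vehicle, orange DOX, shape for replicate number) and a black line at the mean of 3. FZD6 is the highest gene in both groups at a mean of 74.0 TPM in vehicle and 46.1 TPM in DOX, and WNT5B is below 0.3 TPM in every sample.

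Of the Frizzled receptors FZD6, which is known from planar cell polarity, was the highest of all 10 genes. Its TPM was 55.1, 73.0 and 93.9 in vehicle and 31.8, 56.4 and 50.2 in DOX. The groups touched, since DOX replicate 2 was above vehicle replicate 1, while each DOX sample was below the vehicle sample of its number. FZD6 (chromosome 8, 103298433 to 103332866, plus strand) had the largest log2 difference of the 9 tested genes on the TPM scale, -0.68 (95% interval -1.26 to -0.10), which did not pass (limma adjusted p = 0.119). The fit with the replicate number as a block gave an adjusted p of 0.00607 and called it lower. With median-of-ratios scaling the difference was -0.24 (95% interval -0.55 to 0.07, adjusted p = 0.397).

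FZD2, a receptor that can bind WNT5A, showed little difference between the groups in TPM. It had 3.43, 2.48 and 4.14 TPM in vehicle and 2.92, 3.26 and 3.40 TPM in DOX, so the DOX samples lay inside the vehicle range. The log2 difference was -0.04 (95% interval -0.47 to 0.40, limma adjusted p = 0.909), which is 0.31 above the median of all genes. With scaling it was 0.31 (95% interval -0.02 to 0.64, adjusted p = 0.330), and voom on the recovered reads with the replicate block gave 0.41 (adjusted p = 0.0707). FZD2 (chromosome 17, 44557484 to 44561262, plus strand) was thus the one tested member with a positive value beyond 0.2 under scaling, without passing the test in any of the fits run.

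The co-receptors LRP5 and LRP6 are close relatives that pair with Frizzled receptors in β-catenin signalling. LRP6 (chromosome 12, 12116025 to 12267044, minus strand) was at 13.5, 15.6 and 18.6 TPM in vehicle, and at 6.71, 12.1 and 10.5 TPM in DOX. All DOX samples were below all vehicle samples, and the log2 difference of -0.67 (95% interval -1.20 to -0.15) came nearest to the threshold of the 9 tested genes (limma adjusted p = 0.0957). With the replicate block the adjusted p was 0.00569, which is a call. Scaling brought the means to 13.4 ± 0.61 and 11.0 ± 1.22 (SD, n = 3) scaled TPM, still without overlap, with a difference of -0.26 (95% interval -0.54 to 0.02, adjusted p = 0.327).

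LRP5 (chromosome 11, 68312591 to 68449275, plus strand) had 15.7, 13.0 and 21.1 TPM in vehicle and 14.5, 12.8 and 13.3 TPM in DOX. The groups overlapped, and the wide vehicle range came from replicate 3. Its log2 difference was -0.25 (95% interval -0.77 to 0.27, limma adjusted p = 0.483) in TPM and 0.17 (95% interval -0.24 to 0.58, adjusted p = 0.635) with scaling. Neither value passed, and the sign turned between the scales.

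ROR1, a receptor tyrosine kinase-like co-receptor for WNT5A, varied widely between the DOX samples. It was at 7.42, 8.71 and 11.4 TPM in vehicle, but at 3.88, 9.99 and 5.80 TPM in DOX. DOX replicate 2 was inside the vehicle range and above vehicle replicate 2, while the other two DOX samples were below all vehicle samples. The log2 difference was -0.49 (95% interval -1.02 to 0.04, limma adjusted p = 0.195), and -0.10 (95% interval -0.52 to 0.31, adjusted p = 0.780) with scaling. ROR1 spans 63774017 to 64181498 on chromosome 1 (plus strand). In the TPM fit without DOX replicate 2, ROR1 (adjusted p = 0.0239), LRP6 (adjusted p = 0.0287) and FZD6 (adjusted p = 0.0468) were called lower. That fit called 20.3% of all genes lower. Without a block these 3 calls thus turned on 1 library, while the replicate block called FZD6 and LRP6 with all 6 samples.

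CTNNB1, which encodes β-catenin, was at 37.2, 40.6 and 50.3 TPM in vehicle and at 24.0, 34.0 and 29.3 TPM in DOX. The groups did not overlap, and the log2 difference was -0.54 (95% interval -1.09 to 0.01, limma adjusted p = 0.173). Scaling drew the samples close together, to 35.9 ± 0.63 in vehicle and 33.3 ± 1.57 in DOX (SD, n = 3, scaled TPM), with DOX still lower in every sample and a difference of -0.11 (95% interval -0.36 to 0.14, adjusted p = 0.624). CTNNB1 lies on chromosome 3 (41194741 to 41260096, plus strand).

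DKK1, whose protein binds LRP5 and LRP6 and blocks their use by WNT ligands, was nearly as abundant as CTNNB1. Its TPM was 30.3, 35.3 and 52.1 in vehicle and 22.5, 33.2 and 27.5 in DOX, with DOX replicate 2 inside the vehicle range. The log2 difference was -0.47 (95% interval -1.03 to 0.10, limma adjusted p = 0.240) in TPM. It was -0.03 (95% interval -0.32 to 0.26, adjusted p = 0.912) with scaling, a difference smaller than the spread between samples. DKK1 lies on chromosome 10 (52314281 to 52318042, plus strand), and the window with the 2 TCF/LEF cores printed above is at its start.

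Over the members, none of the 9 passed the test (limma on log2(TPM + 1), adjusted p under 0.05 and a fold above 1.5), where 2.98% of all 11672 genes were called lower and 0.0257% higher in DOX. At an unadjusted p under 0.05 and the same fold there were 2, FZD6 and LRP6, both lower, where 19.0% of all genes were lower and 0.120% higher by this measure, so the share was close to that of all genes. The fit with voom on the recovered reads called 0 of the 9 (0.00857% of all genes were called lower). Their median log2 difference was -0.47 beside -0.35 for all genes, and -0.10 beside 0.02 after scaling. The DOX samples were below all vehicle samples for 4 of 9 members (WNT5A, WNT7B, LRP6 and CTNNB1) on the TPM scale, where this held for 30.7% of all genes, and above them for 0 of 9 (0.223% of all genes). With scaling that count was 2 (LRP6 and CTNNB1), where the share of all genes was 9.15%. The replicate block called FZD6 and LRP6 lower, in a fit that called 19.0% of all genes lower and 0.129% higher. CTNNB1 (adjusted p = 0.0277) and ROR1 (adjusted p = 0.0408) were past the p threshold in that fit with a fold under 1.5.

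**Figure D2:**
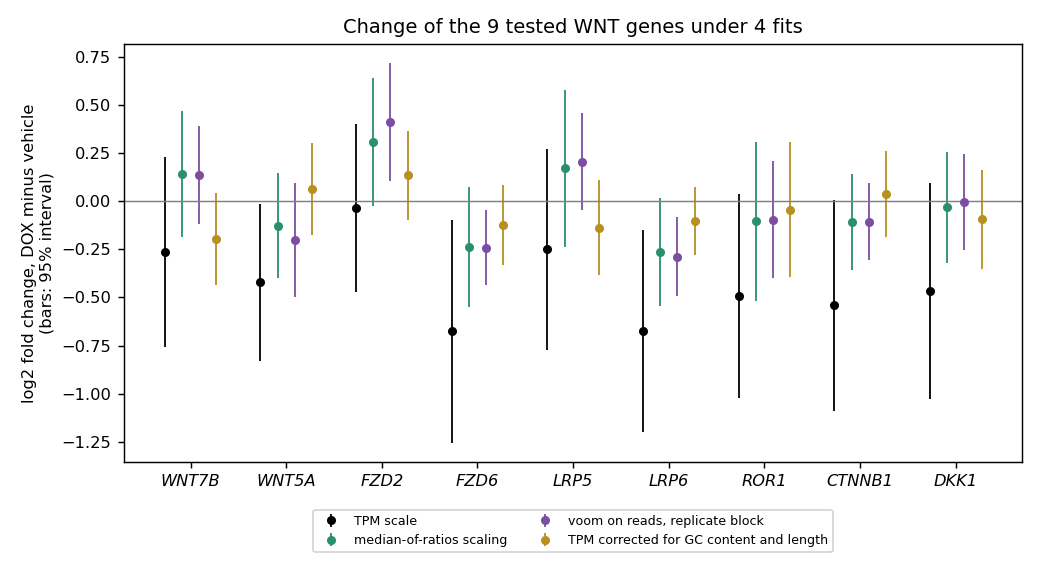
Log2 fold change, DOX minus vehicle, of the 9 tested members under 4 fits (black TPM, green median-of-ratios scaling, purple voom on recovered reads with replicate block, yellow TPM corrected for GC content and exon length), with bars for the 95% interval of each gene before adjustment for many tests. All 9 black points are below 0, from -0.68 for FZD6 to -0.04 for FZD2, and the green points spread around 0 from -0.26 for LRP6 to 0.31 for FZD2.

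The order of levels, in TPM and thus per length of transcript, was FZD6, CTNNB1, DKK1, LRP5, LRP6, WNT7B, ROR1, FZD2, WNT5A and WNT5B in both groups. In vehicle the ranges of CTNNB1 and DKK1 overlapped, as did those of LRP5 and LRP6, of WNT7B and ROR1 and of FZD2 and WNT5A, and the other neighbours were separate. In DOX FZD6 overlapped with CTNNB1 and CTNNB1 with DKK1, LRP6 with WNT7B and WNT7B with ROR1. LRP5 and LRP6 did not overlap in DOX, and neither did FZD2 and WNT5A.

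Within the ligand family WNT7B held 65.2% to 71.7% of the summed TPM of 19 WNT genes in the 6 samples and WNT5A held 9.93% to 16.3%. WNT5A made up 14.6% ± 1.92 of it in vehicle and 11.9% ± 1.83 in DOX (SD, n = 3, exact permutation p = 0.2). Of the summed TPM of 10 Frizzled genes FZD6 held 78.9% ± 2.06 in vehicle and 75.9% ± 2.61 in DOX (SD, n = 3, exact permutation p = 0.2), and FZD2 held 3.67% ± 1.03 and 5.47% ± 1.14 (exact permutation p = 0.2). The shares of these members overlapped between the groups. No other WNT ligand separated the groups, but 3 other Frizzled genes did, FZD3 (5.22% ± 0.57 in vehicle and 3.87% ± 0.57 in DOX), FZD1 (3.60% ± 0.39 and 4.71% ± 0.32) and FZD9 (0.117% ± 0.068 and 0.373% ± 0.188) (SD, n = 3). These 3 were named after their values were seen, so no test is given, and shares of 1 sum depend on each other. FZD9 was under the minimum for the test, with 6, 2 and 2 reads in vehicle and 77, 13 and 9 in DOX. A family share has no counterpart over all genes. By scaled TPM the groups were separate for 9.15% (DOX lower) and 10.9% (DOX higher) of all genes. Exon GC content was 35.0% for FZD3, 47.6% for FZD1 and 68.5% for FZD9.

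**Figure D3:**
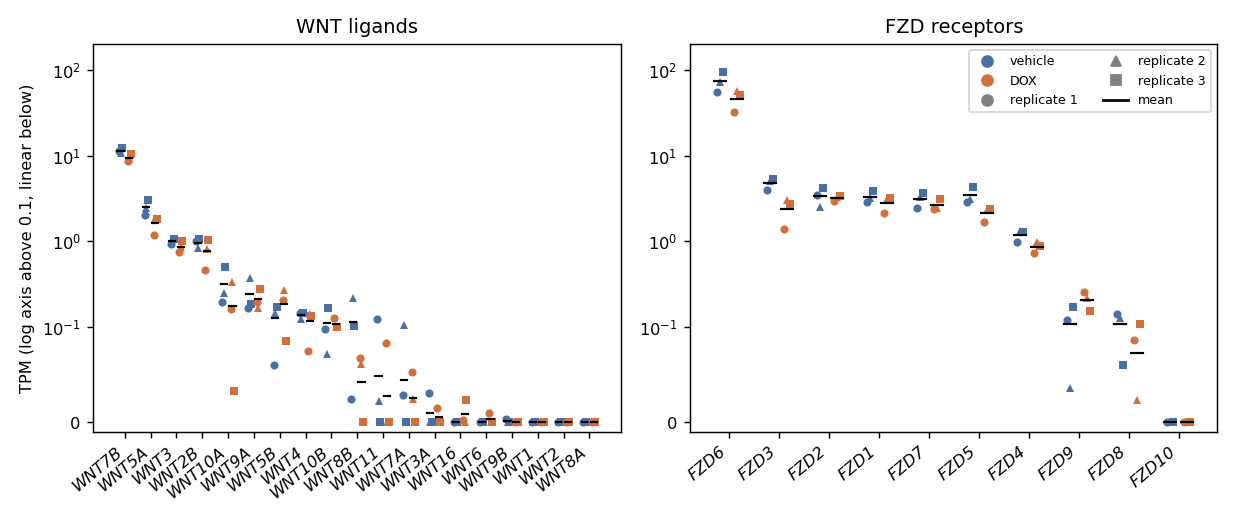
TPM of all 19 WNT ligand genes (left) and all 10 Frizzled genes (right), ordered by mean, on an axis that is logarithmic above 0.1 and linear below, with 1 point per sample (blue vehicle, orange DOX, shape for replicate number) and a black line at the mean of 3. WNT7B and WNT5A lead the ligands, FZD6 leads the receptors, and WNT1, WNT2, WNT8A and FZD10 are listed at 0 in every sample.

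Ratios between members of 1 sample do not depend on how that sample was scaled. They were formed, after the values had been seen, for 3 pairs of like function, and none of the 3 separated the groups. WNT5A over WNT7B was 0.178, 0.231 and 0.248 in vehicle and 0.138, 0.205 and 0.175 in DOX. The means of 0.219 ± 0.037 and 0.173 ± 0.033 (SD, n = 3) gave an exact two-sided permutation p of 0.2, Benjamini-Hochberg adjusted over the 3 ratios 0.3. FZD2 over FZD6 had means of 0.0467 ± 0.014 in vehicle and 0.0725 ± 0.018 in DOX (SD, n = 3, exact permutation p = 0.2, adjusted 0.3). LRP6 over LRP5 had means of 0.982 ± 0.19 and 0.734 ± 0.25 (SD, n = 3, exact permutation p = 0.3, adjusted 0.3). In all 3 ratios the same-numbered samples moved one way in 3 of 3 pairs, but the groups overlapped, and p cannot go below 0.1 with 3 samples against 3. Each ratio set a member of lower exon GC content against one of higher. The contents were 42.9% for WNT5A and 64.7% for WNT7B, 38.8% for FZD6 and 55.8% for FZD2, and 41.0% for LRP6 and 62.6% for LRP5. In each ratio the member of lower GC content fell against its partner. Differences followed GC content over all genes too, as given below, and its part in the ratios was not tested.

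A wider list of 133 WNT pathway genes, the members included, placed these values among their partners. Of them 7 were listed at 0 in all samples, 42 were under the minimum and 84 were tested. In the TPM fit 4 of the 84 passed, all of them lower in DOX, where 2.98% of all genes were called lower. At an unadjusted p under 0.05 and the same fold, 15 were lower and 0 higher, beside 19.0% and 0.120% of all genes. The list median was -0.38 beside -0.35 for all genes, with 81 of 84 values negative (93.1% of all genes were), and 0.00 beside 0.02 with scaling. Of the 4 called genes, 2 belong to the WNT5A branch, DAAM1, a formin that binds Dishevelled (8.15 ± 1.16 to 4.25 ± 1.15 TPM, log2 -0.82, limma adjusted p = 0.0497), and ROCK2, a kinase that RHOA activates (19.1 ± 3.95 to 9.31 ± 4.77 TPM, log2 -1.05, limma adjusted p = 0.0408). The others were FZD3, a polarity receptor (4.80 ± 0.71 to 2.40 ± 0.88 TPM, log2 -0.80, limma adjusted p = 0.0462), and APC, the scaffold of the complex that degrades β-catenin (14.0 ± 3.23 to 7.17 ± 4.26 TPM, log2 -0.99, limma adjusted p = 0.0471; SD, n = 3 in each). None of the 4 was called with median-of-ratios scaling, where their adjusted p-values were 0.280 to 0.283. In that fit 0 of all 11595 genes were called (133 lower and 137 higher at an unadjusted p under 0.05 with the fold). The exons of these 4 genes held 35.0% to 40.5% GC. With correction for GC content and exon length their log2 differences were -0.40 for ROCK2, -0.39 for APC, -0.21 for DAAM1 and -0.06 for FZD3. The limma adjusted p-values of that fit were 0.361 to 0.869. Leaving out vehicle replicate 2, vehicle replicate 3, DOX replicate 1 or DOX replicate 3 left 0 calls in the list, and leaving out DOX replicate 2 gave 13 of 85, where 20.3% of all genes were called lower. With the replicate block 15 of 84 were called lower, where the share of all genes was 19.0%, so neither count stood above that of all genes. Voom on the reads with the block called APC, FZD3 and ROCK2 lower and SCRIB, a polarity scaffold, higher (log2 0.63, adjusted p = 0.0299), in a fit that called 2.24% of all genes lower and 1.46% higher.

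By role, the ligands had 2 tested genes (WNT7B and WNT5A) and none called, and ligand secretion had 0 of 2, where WLS, the WNT carrier, was at 14.0 ± 0.75 TPM in vehicle and 10.1 ± 1.59 in DOX. Against 2.98% of all genes called lower, receptors had 1 of 7 called, co-receptors 0 of 5, secreted inhibitors 0 of 4 and receptor turnover 0 of 4. The co-receptor RYK, which binds WNT5A, was at 32.0 ± 6.21 and 22.7 ± 4.76 TPM, the inhibitor SFRP1 at 12.7 ± 1.26 and 8.86 ± 1.81 TPM and the R-spondin receptor LGR4 at 45.2 ± 7.42 and 28.3 ± 6.76 TPM. In the cytoplasmic core 1 of 17 was called, with CSNK1A1, a kinase that primes β-catenin, at 118.2 ± 20.7 and 82.6 ± 18.2 TPM. Nuclear factors (0 of 12) included the β-catenin cofactors BCL9L, at 19.6 ± 2.55 and 18.1 ± 0.34 TPM, and PYGO1, at 3.29 ± 0.60 and 1.81 ± 0.79 TPM. Among transcriptional targets (0 of 7) CCND1 was at 68.7 ± 11.1 and 56.7 ± 15.3 TPM, and in the polarity and calcium branch (2 of 28) RHOA was at 251.0 ± 78.4 and 196.1 ± 51.6 TPM (vehicle and DOX, SD, n = 3 each). None of these 9 genes was called in the TPM fit, and after median-of-ratios scaling their log2 differences ran from -0.34 for PYGO1 to 0.33 for BCL9L, with WLS at -0.033, RYK at -0.052, SFRP1 at -0.079, CSNK1A1 at -0.079 and LGR4 at -0.24 (none called). With the replicate block on the TPM scale PYGO1 (limma adjusted p = 0.00408) and LGR4 (limma adjusted p = 0.0065) were called lower, where 19.0% of all genes were.

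Across the members the log2 difference followed the GC content of their exons. The 6 genes of 38.8% to 44.5% GC (FZD6, CTNNB1, LRP6, WNT5A, ROR1 and DKK1) had TPM differences of -0.68 to -0.42, and the 3 of 55.8% to 64.7% GC (FZD2, LRP5 and WNT7B) had -0.26 to -0.04. After median-of-ratios scaling the first 6 lay between -0.26 and -0.03 and the last 3 between 0.14 and 0.31. Pearson's r between GC and log2 difference was 0.81 over the 9 members in TPM, 0.86 with scaling and -0.26 once the values were corrected for GC content and exon length. That correction removes the relation over all genes by construction, so its loss among the members is not a separate result. Before correction, r was 0.80 over the 84 list genes and 0.69 over the 10850 genes with an annotated GC content on the TPM scale, so the members shared this relation with all genes. These points share the same 6 libraries, and r is given as a description. With the correction no member was beyond 0.20 in size and the adjusted p-values were 0.505 or more, with WNT5A at 0.06 (adjusted p = 0.848). Whether GC content takes part in the differences in any other way was not tested.

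**Figure D4:**
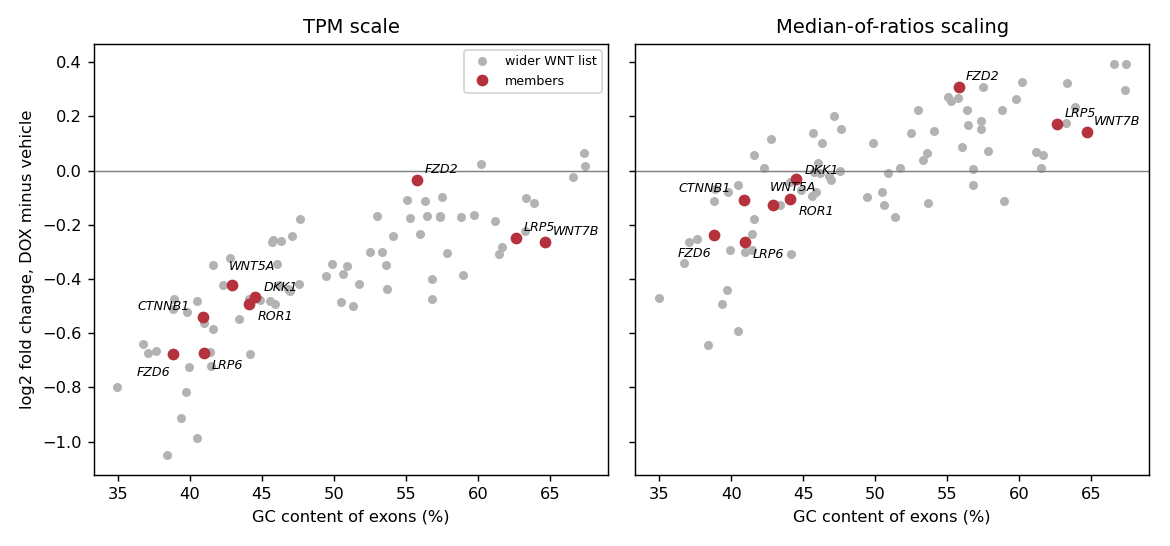
GC content of the exons (%, x axis) against log2 fold change, DOX minus vehicle (y axis), for the genes of the wider WNT list (grey) with the 9 tested members in red, in TPM (left) and after median-of-ratios scaling (right). The points rise from left to right in both panels, and scaling moves them up, from a list median of -0.38 to 0.00.

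In the list as a whole, 36 of 44 genes above the median GC of all tested genes (47.0%) had a positive scaled difference (median 0.15), while 6 of 39 at or below it had one (median -0.11). Each of the 3 GC-rich tested members was among the former, and each of the 6 GC-poor members was below 0. The same counts were not made over all genes, where r between GC content and the scaled difference was 0.66. The split therefore cannot be read as a trait of WNT genes.

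The genes whose scaled levels ran most like those of WNT5A over the 6 samples, out of 11671, were BTBD7 (Pearson's r = 1.00), ZYG11B, PRKCI, MARCH6 and STAU2 (r = 0.99 or more for each). Of the members FZD6 (r = 0.94) and LRP6 (r = 0.88) ran closest to WNT5A, and FZD2 ran opposite (r = -0.88). On the TPM scale the leading 5 were MAP3K1, TRAPPC6B, KDM6A, BTBD7 and TNKS, so 1 of 5 was shared, and FZD2 was at r = 0.38. The choice of like genes thus turned on the scale, and with 6 points shared by all genes these values are descriptions.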

How the data were processed

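RNA from 3 vehicle and 3 DOX samples was sequenced, and the study's methods name a stranded mRNA kit for the libraries. As given above, 5 small RNAs held 67.5% to 82.6% of all TPM, and how far the libraries were selected for mRNA was not tested. Per the study's methods and the file headers, the authors aligned reads with STAR to GRCh38 and deposited TPM per gene symbol, 1 column per sample. Read counter, strand setting and versions are not given in the sources used here. The methods name Trizol for RNA isolation, whereas the labels name a column kit. A second deposited file holds the authors' DESeq2 comparison, with mean normalized counts (a pooled signal), log2 fold changes, their standard errors and test statistics (score) and p-values by the authors. Only its mean normalized counts were used, to recover reads.

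Groups and replicate numbers came from the labels. The members and lists were chosen with earlier results of these data known. Log2(TPM + 1) of the genes whose TPM averaged 1 or more (11672 of 25528) was fitted with limma 3.58.1 (R 4.3.3, trend, no block), with Benjamini-Hochberg adjustment over all genes tested, and calls needed an adjusted p under 0.05 and a fold above 1.5. Fold changes on this scale understate changes of low genes. Intervals are 95% and unadjusted. Reads were recovered for 19251 genes from low TPM steps and the mean normalized counts, and rounded to whole reads. Of 21509 low values (up to 20 reads) 98.9% were whole within 0.05, a check that removed no gene. The recovered reads served limma's voom as an alternative. No count test was the main result, since the deposited per-sample values are TPM. On simulated data limma recovered 171 of 194 genes changed by 2-fold (13 false calls among 11521 genes) and voom 190 of 200 (14 false calls among 11669). The simulation gave every gene the same dispersion. It held no relation to GC content, no shift in small RNAs and no replicate effect. Its rates therefore do not tell how often a 2-fold change would be found in the real samples.

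GC content and exon length came from GENCODE 44, matched by symbol for 22264 genes (87.2%), and were corrected for per sample by splines. Named genes were the members, every list gene called, the highest and most changed list gene of each role, XIST, and the 5 genes most like WNT5A. SCRIB, SP5, AXIN2, FZD1 and FZD9 were named after their values were seen. Deviations from the group means correlated between same-numbered samples at 0.57, 0.24 and 0.21 on the TPM scale. The correlations were 0.56, 0.26 and 0.19 with median-of-ratios scaling, and 0.19, 0.017 and 0.17 after the GC content and length correction. The numbers were treated as pairing the samples on the TPM correlations alone, and a fit with the replicate block was set beside the main one. That fit thus rests on a pairing that the labels do not give and that was weaker after the correction. Alternatives were scaling, pseudocount, minimum TPM, variance trend, block, voom, GC and length correction, and leaving out each sample. Median-of-ratios scaling within limma without vehicle replicate 3 (shallowest) or DOX replicate 1 (deepest) was chosen after seeing the data. No 2 samples held identical values. Some marker genes are not reported here.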

Additional observations from a re-analysis of the deposited data

How the results depend on the processing

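Over all genes, calls lower in DOX were 348 on the TPM scale and 46 with a pseudocount of 0.1, 633 with a mean TPM of at least 5, 8 without the variance trend, 1 with voom, 1 with median-of-ratios scaling without DOX replicate 1, and 0 with median-of-ratios scaling (with or without the block, or without vehicle replicate 3), with no minimum of mean TPM and with the GC content and length correction (with or without the block). The replicate block gave 2217, and voom with the block gave 261. Leaving out 1 sample gave 0 to 2378. Calls higher were 3, with 15 under the replicate block, 170 with voom and the block, 0 to 23 without 1 sample, and 0 with no minimum, no variance trend, voom, the GC content and length correction, or scaling in any form. The cause was not tested.

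Among the members, 0 were called except for 2 (FZD6 and LRP6) with the replicate block on the TPM scale and 3 without DOX replicate 2 (range without 1 sample 0 to 3). The block changed no other member's call. For the list, 4 calls lower became 15 with the replicate block, 0 to 13 without 1 sample, and 0 with scaling (with or without the block, vehicle replicate 3 or DOX replicate 1), with pseudocount 0.1, no minimum, no variance trend, voom, and the GC content and length correction (with or without the block). Voom with the block gave 3 calls lower and 1 higher.

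The members' median of -0.47 was -0.10 with scaling (with or without the block), -0.11 with voom, -0.095 with voom and the block, -0.094 with the GC content and length correction (with or without the block), and -0.068 and -0.054 with scaling without vehicle replicate 3 and DOX replicate 1. The list median of -0.38 was 0.00021, 0.013, 0.0063, -0.029, 0.020 and -0.028 in the same order.

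The sign turned from negative to positive as follows. With scaling (with or without the block), values were 0.33 for BCL9L, 0.14 for CCND1, 0.31 for FZD2, 0.17 for LRP5, 0.10 for RHOA and 0.14 for WNT7B. With voom they were 0.34, 0.14, 0.46, 0.20, 0.10 and 0.15, and with voom and the block 0.34, 0.14, 0.41, 0.21, 0.10 and 0.14. The GC content and length correction (with or without the block) gave 0.048 for BCL9L, 0.068 for CSNK1A1, 0.038 for CTNNB1, 0.14 for FZD2, 0.035 for PYGO1, 0.084 for RYK and 0.065 for WNT5A. Scaling without vehicle replicate 3 gave 0.26 for BCL9L, 0.14 for CCND1, 0.063 for DKK1, 0.33 for FZD2, 0.23 for LRP5, 0.21 for RHOA and 0.075 for WNT7B. Scaling without DOX replicate 1 gave 0.18 for BCL9L, 0.22 for CCND1, 0.23 for FZD2, 0.15 for RHOA, 0.036 for ROR1 and 0.045 for WNT7B. On the TPM scale FZD2 ran from -0.19 to 0.093 without 1 sample, and turned without vehicle replicate 3 (0.093) or DOX replicate 1 (0.011). Of the other values, 303 kept direction and side of the threshold, 57 fell short of it and 9 passed it. Over its alternatives WNT5A had adjusted p-values of 0.0535 to 0.848. Its value in vehicle replicate 3 rests on 104 reads.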

Other observations

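Among direct β-catenin targets, SP5, a transcription factor, was chosen after its values were seen. It stood at 0.0246, 0 and 0 TPM in vehicle and at 0.209, 0.104 and 0.146 TPM in DOX, from 1, 0 and 0 reads against 51, 5 and 7. The groups did not overlap, the gene was under the minimum of the test, and no test is given since it was picked for this separation. AXIN2, another direct target, was at 0.207, 0.338 and 0.485 TPM in vehicle and 0.247, 0.210 and 0.149 TPM in DOX, with overlapping groups. DKK1 is a target on the same list and is described above.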
